A study of Rattus norvegicus with 4 samples.

Results

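The genes described here are the collagens and matrix proteoglycans of the rat hippocampus on postnatal day 1, together with the glycoproteins, proteases and protease inhibitors of the same matrix. The members were chosen by name. All rows with a numeric gene ID whose symbol has the form of a collagen chain were taken, which gave 27 chains, and 27 of 30 further names (such as Dcn, Fn1, Ncan and Timp1) were found, which gave 54 members among 13984 rows with a gene ID. The remaining names, Nid1, Lama2 and Lamb1, were present only as transcripts assembled by the authors without a gene ID. Of the 54 members, 53 were listed in all 4 libraries, and 41 had a mean level of at least 1 FPKM (fragments scaled to transcript length and library size), the limit used for all fold changes below. A further 12 were listed in all libraries under that limit and are described after the others.

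Pregnant Wistar rats, 10 weeks old according to the labels, received 5000 µg per kg body weight of bisphenol A (BPA, a plasticiser monomer with oestrogen-like activity) or vehicle by daily intragastric dosing from gestation day 1 to birth, and the hippocampus of their pups was taken for RNA sequencing. The design asked whether maternal BPA changed the hippocampal transcriptome and whether it did so alike in the sexes. There were 4 groups of the same strain and age, namely control males, BPA males, control females and BPA females. Each group was 1 library made from a pool of 3 hippocampi, so within a sex the BPA and control libraries could be compared by size of change but not tested. The vehicle given to the control dams was corn oil with ethanol.

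In the extracellular matrix, fibrillar collagens form tensile fibres, small leucine-rich proteoglycans such as decorin coat and space those fibres, and type IV collagen, laminins and nidogens build the basement membranes of vessels and of the brain surface. The parenchyma of the brain has little fibrillar collagen and instead holds hyaluronan, the lecticans (chondroitin sulphate proteoglycans including neurocan, brevican and versican) and tenascins, which are made by neurons and glia and later form perineuronal nets. In and around the brain, type I and III collagens, decorin, lumican and osteoglycin are made chiefly by fibroblasts of the meninges and of larger vessels.

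The libraries were close in depth, with an estimated 8670000 to 8930000 fragments each, and their log2(FPKM + 1) values correlated pairwise at Pearson r of 0.9838 to 0.9914 across rows with a gene ID. Between libraries the median change over all 10857 rows with a gene ID that passed the same limit was -0.004 on the log2(FPKM + 1) scale in males and -0.038 in females. The summed level of 8 pyramidal and granule neuron markers was 509 FPKM in control males, 515 in BPA males, 511 in control females and 543 in BPA females. Map2 and Neurod6 were the highest of the 8, so the even sum does not test the hippocampal label. Single markers were less even in females, where BPA minus control was -0.68 for Prox1, -0.52 for Zbtb20 and -0.51 for Grik4. For Neurod2 and Tbr1 it was 0.50. Markers of 2 neighbouring tissues were uneven. A list of 12 meningeal markers that are not members summed to 62.5 FPKM in control males, 73.4 in BPA males, 291 in control females and 47.8 in BPA females, and 8 choroid plexus markers summed to 267, 708, 9.81 and 45.9 FPKM in the same order. The female control library was the highest for meningeal markers. The choroid plexus sum was carried by Ttr, a thyroid hormone carrier, at 256, 690, 3.96 and 42.4 FPKM, and for Folr1, Aqp1, Clic6, Kl, Slc4a5 and Kcnj13 of that list female BPA was the lowest library. Because the female control stood apart, the main female results are given below also without it, with female BPA set against male control, an alternative added after seeing the data. That contrast changes sex and treatment together, so it cannot separate a BPA change from a sex difference.

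Ranked by mean level per length, the members were led by Sparc, lecticans, Timp2 and tenascin C and not by fibrillar collagen. Sparc, a collagen-binding matricellular glycoprotein, stood at 195 FPKM in control males, 184 in BPA males, 233 in control females and 184 in BPA females. Neurocan (Ncan) ranged from 149 to 215 FPKM, the metalloprotease inhibitor Timp2 from 141 to 167, tenascin C (Tnc) from 92.5 to 100 and brevican (Bcan) from 81.2 to 115. Type IV collagen α1 (Col4a1) at 39.1 to 50.8 FPKM was the highest of the collagen chains. Among collagens the 3 chains of type I and III followed, at 10.3 to 32.6 FPKM.

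**Figure D1:**
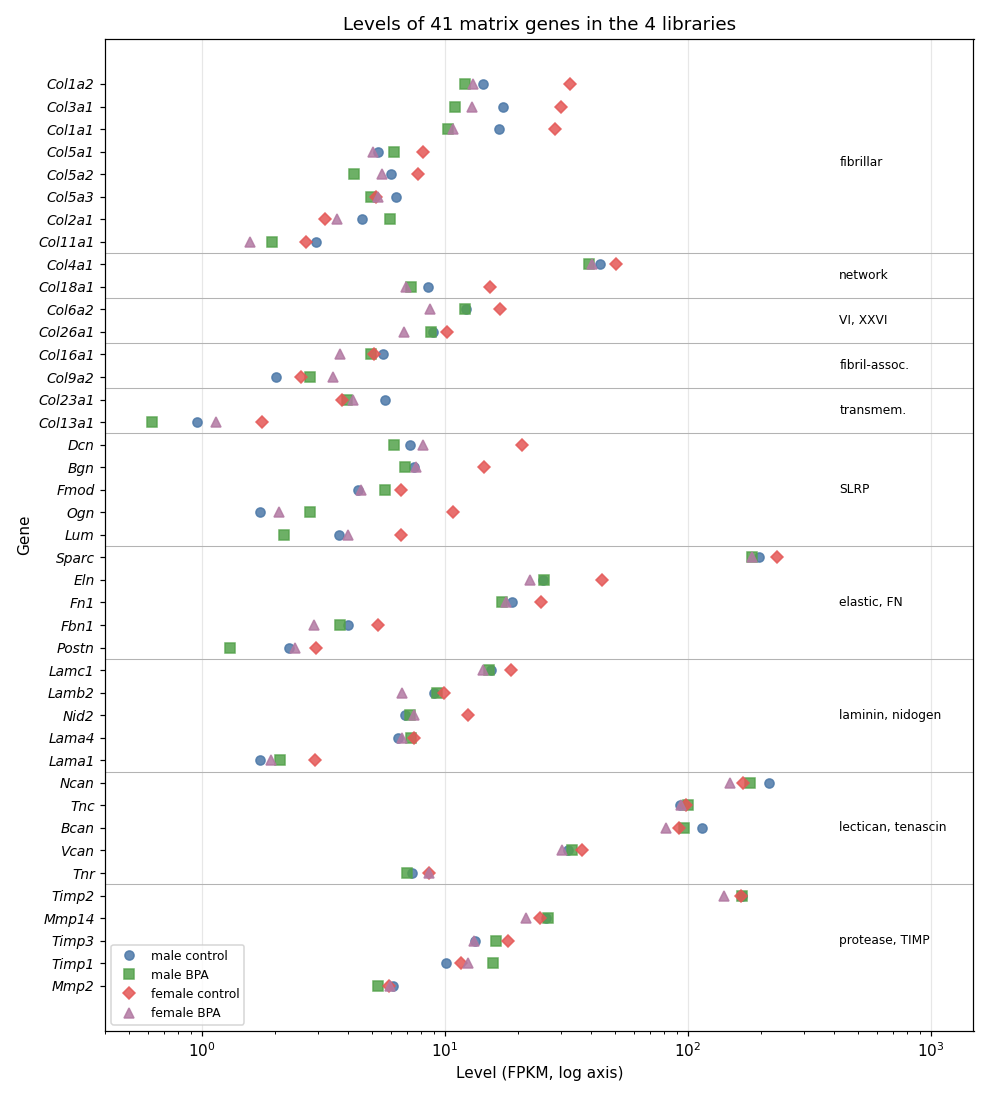
Levels of the 41 members with a mean of at least 1 FPKM, 1 row a gene, grouped by role, on a logarithmic FPKM axis. Circles and squares are the male libraries (control and BPA), and diamonds and triangles the female ones (control and BPA). Ncan, Bcan and Sparc lie near 100 FPKM or above with their 4 points close together, while the female control diamond lies to the right of the other 3 points for Col1a2, Dcn, Ogn and Bgn.

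Across the 41 members, 1 was higher and 4 were lower by at least 0.5 on the log2 scale (a 1.41-fold change) in male BPA than in male control, where 1.34% of all rows with a gene ID were higher and 2.06% lower. In females none was higher and 16 were lower, against 1.17% of all rows higher and 4.93% lower. The median change over the 41 members was -0.09 in males (range -0.65 to 0.59) and -0.42 in females (range -1.94 to 0.33). The male and female comparisons share no library. Col1a1, Col3a1 and Lum were lower past this size in both sexes, against 0.433% of all rows, and no member was higher in both, against 0.111% of all rows. These counts describe single libraries, without a replicate within any group.

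When both sexes were joined, limma with 2 BPA against 2 control libraries called 0 members at a Benjamini-Hochberg adjusted p under 0.05, as it called 0% of all 13542 rows, and the smallest adjusted p of a member was 0.973. At an unadjusted p under 0.05 it listed 3 members, Col1a1, Col3a1 and Col18a1, all lower with BPA, where 4.7% of all rows passed. Here the sexes stand in for replicates. With sex as a covariate limma listed 15 members at an unadjusted p under 0.05, against 8.98% of all rows. When 1 library was left out it listed 15 members without male control (5.69% of all rows), 3 without male BPA (5.05%), 2 without female control (3.97%) and 5 without female BPA (3.01%), and after adjustment it called 0 members in each of these fits. A permutation of 2 against 2 libraries cannot give a two-sided p below 0.333, so no exact test of a single gene could pass. The members were also compared by order alone. Both BPA libraries were below both control libraries for 14 of the 41 members, against 20.2% of all rows with a gene ID, and above both for 2, against 13.3%.

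**Figure D2:**
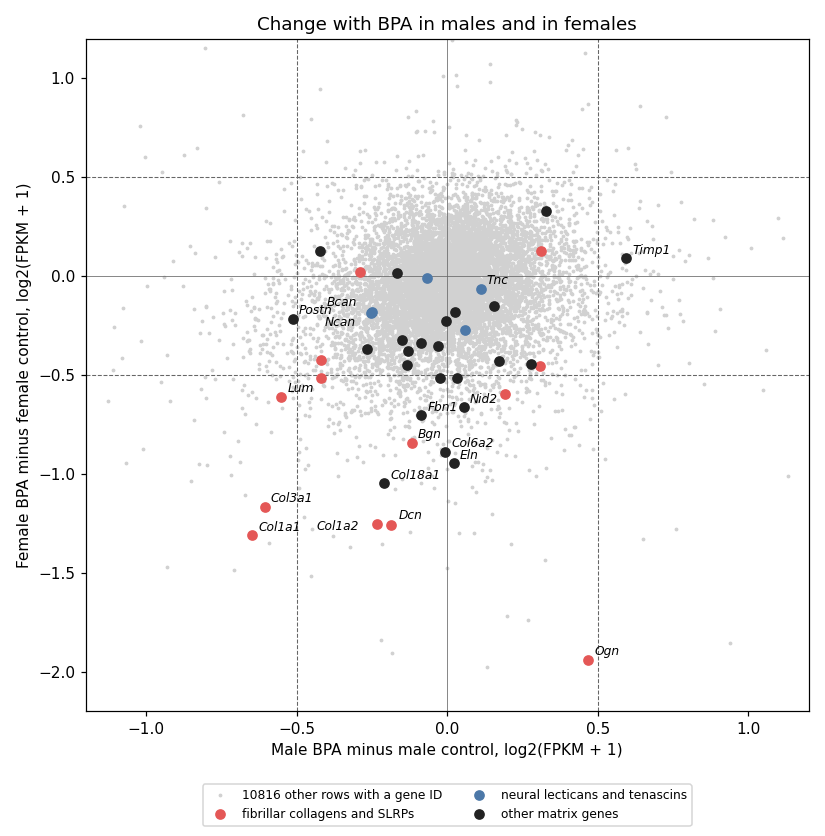
Change with BPA in males (x axis) and in females (y axis), both as BPA minus control on the log2(FPKM + 1) scale, for the 41 members (large points, coloured by role) and for 10816 other rows with a gene ID (grey, of which 24 lie outside the axes). Dashed lines mark a change of 0.5 in either direction. Most members lie below 0 on the female axis, with Ogn lowest at -1.94, while on the male axis they spread to both sides of 0.

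Among the fibrillar collagens, 8 of 10 chains could be compared. Their summed level over all 10 chains was 75.5 FPKM in control males, 58.5 in BPA males, 120 in control females and 59.2 in BPA females, and the median change was -0.35 in males and -0.55 in females on the log2 scale. Type I collagen is a trimer of Col1a1 and Col1a2 chains and is the main collagen of fibrous tissue. Col1a1 stood at 16.7 FPKM in control males, 10.3 in BPA males, 28.3 in control females and 10.8 in BPA females. Both BPA libraries lay below both controls and close to each other, and the female control was the highest. The log2 change was -0.65 in males, with a counting error of 0.08 (the standard error of the log2 ratio from estimated fragments alone), and -1.31 in females, with a counting error of 0.07. In limma the joint change was -0.98 ± 0.231 (SE), with an unadjusted p of 0.00428 and an adjusted p of 0.973.

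Type III collagen, the partner of type I in young and elastic tissue, followed closely. Col3a1 was measured at 17.3 FPKM in control males, 11 in BPA males, 30.1 in control females and 12.9 in BPA females. Again the controls and the BPA libraries did not overlap. The change was -0.61 in males and -1.17 in females, and the joint limma change was -0.89 ± 0.244 (SE), unadjusted p of 0.00908 and adjusted p of 0.973. The ratio of Col1a1 to Col3a1 in FPKM was 0.962 in control males, 0.932 in BPA males, 0.94 in control females and 0.841 in BPA females, a much narrower range than that of either level.

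Col1a2, the second chain of type I collagen, differed from its partner in males. Its level was 14.4 FPKM in control males, 12.1 in BPA males, 32.6 in control females and 13.1 in BPA females. The female control was well above 3 libraries that were alike, and the change was -0.23 in males and -1.25 in females. Accordingly the ratio of Col1a1 to Col1a2 was 1.16 in male control and between 0.826 and 0.867 in the other libraries.

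The minor fibrillar chains were lower in level. Col5a1, which initiates type I fibrils, was 5.28 FPKM in control males, 6.18 in BPA males, 8.13 in control females and 5.05 in BPA females. The change was 0.19 in males and -0.59 in females, of opposite sign (-0.05 for female BPA against male control). Col5a2 had 5.98, 4.22, 7.72 and 5.5 FPKM in the same order, with a change of -0.42 in both sexes, just inside the limit of 0.5. Col11a1, a chain shared by cartilage and nervous tissue, had 2.94, 1.95, 2.67 and 1.57 FPKM, and here the 2 controls were alike and both BPA libraries were lower, with a change of -0.42 in males and -0.51 in females. Col2a1, the main collagen of cartilage, was the exception, at 4.57, 5.92, 3.22 and 3.61 FPKM, with both male libraries above both female libraries. Its female minus male difference was -0.49, with a limma unadjusted p of 0.037 and an adjusted p of 0.434. Among 7 cartilage and bone markers only Sox9, which glia also express, passed the level limit. Col5a3 changed by -0.29 in males and 0.02 in females.

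Of the 10 role groups the small leucine-rich proteoglycans had the widest spread of summed level between libraries, taken as the ratio of the highest library to the lowest. All 5 could be compared, and they summed to 24.4 FPKM in control males, 23.6 in BPA males, 59.1 in control females and 26.3 in BPA females. In each of the 5 the female control was the highest library. Decorin (Dcn), which binds collagen fibrils and growth factors, stood at 7.17 FPKM in control males, 6.18 in BPA males, 20.8 in control females and 8.1 in BPA females. The female change was -1.26 with a counting error of 0.16, and the male change of -0.19 was smaller than its counting error of 0.21.

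Osteoglycin (Ogn), a small keratan sulphate proteoglycan of connective tissue, showed the largest female change of the 41 members. Its level was 1.74 FPKM in control males, 2.79 in BPA males, 10.8 in control females and 2.07 in BPA females. An estimated 242 fragments lay behind the female control value, against 40 to 64 in the other libraries. The change was 0.47 in males and -1.94 in females, which are of opposite sign, with counting errors of 0.29 and 0.23.

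Biglycan (Bgn), the close relative of decorin, had 7.48 FPKM in control males, 6.82 in BPA males, 14.4 in control females and 7.6 in BPA females. The change was -0.12 in males and -0.84 in females. The ratio of decorin to biglycan was 0.959 and 0.906 in the male libraries, 1.44 in female control and 1.07 in female BPA. Lumican (Lum), which regulates fibril width, was measured at 3.66 FPKM in control males, 2.18 in BPA males, 6.6 in control females and 3.98 in BPA females. It was lower with BPA by a similar amount in each sex, with a log2 change of -0.55 in males and -0.61 in females, but the female BPA library was above male control. Fibromodulin (Fmod), another collagen-binding member, had 4.4, 5.68, 6.57 and 4.52 FPKM, with changes of 0.31 in males and -0.46 in females.

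Type XVIII collagen (Col18a1), the basement membrane collagen that carries endostatin and heparan sulphate, also had female control as its highest library. It was 8.51 FPKM in control males, 7.23 in BPA males, 15.3 in control females and 6.89 in BPA females. The change was -0.21 in males and -1.05 in females, with a joint limma change of -0.63 ± 0.249 (SE), unadjusted p of 0.0417 and adjusted p of 0.973. Against male control, female BPA was lower by a log2 change of -0.27.

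In 10 members the female control library lay at least 0.5 on the log2 scale above each other library, against 1.02% of all rows with a gene ID, and no other library stood apart so for any member. The 10 were Col1a1, Col1a2, Col3a1, Col18a1, Dcn, Bgn, Ogn, Lum, Eln and Nid2. The female control library was also the highest of the 4 in 28 of the 41 members, against 29.5% of all rows. When female BPA was set against male control instead, sex and treatment differed together. In that contrast 1 member (Col9a2) was higher and 3 (Col1a1, Col11a1 and Ncan) were lower past 0.5, against 1.6% and 5.17% of all rows with a gene ID. The median over the members was -0.10 in place of -0.42. Ncan stood at -0.53 there, while its change within females was -0.18 and its female minus male difference -0.31. In female BPA against male control the change was 0.16 for Dcn, 0.16 for Ogn, 0.02 for Bgn, 0.10 for Lum and 0.11 for Nid2. These 5 were thus no longer lower, but none was higher past 0.5, and the counting error of this contrast was not estimated. The change was -0.12 for Col1a2, -0.16 for Eln, -0.40 for Col3a1 and -0.58 for Col1a1. The median went from -0.55 to -0.24 for the fibrillar collagens, from -0.84 to 0.10 for the small leucine-rich proteoglycans, from -0.45 to -0.09 for the elastic fibre and matricellular glycoproteins and from -0.43 to 0.04 for the laminins and nidogens. The 8 meningeal markers that passed the level limit were also all highest in female control, and 7 of them were lower in female BPA past 0.5. Of the 4 under the limit, Slc47a1 was at 0.01 FPKM in female BPA, the lowest value the files hold. Among the 8, Ptgds, a prostaglandin synthase of the leptomeninges, stood at 28.9 FPKM in control males, 40.2 in BPA males, 209 in control females and 18.1 in BPA females, and Aldh1a2, the meningeal retinoic acid enzyme, at 3.14, 3.25, 10.2 and 3.54. The part of the meningeal markers in the matrix result was not tested. In such tissue RNA fewer cells of a type and less RNA per cell cannot be told apart.

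**Figure D3:**
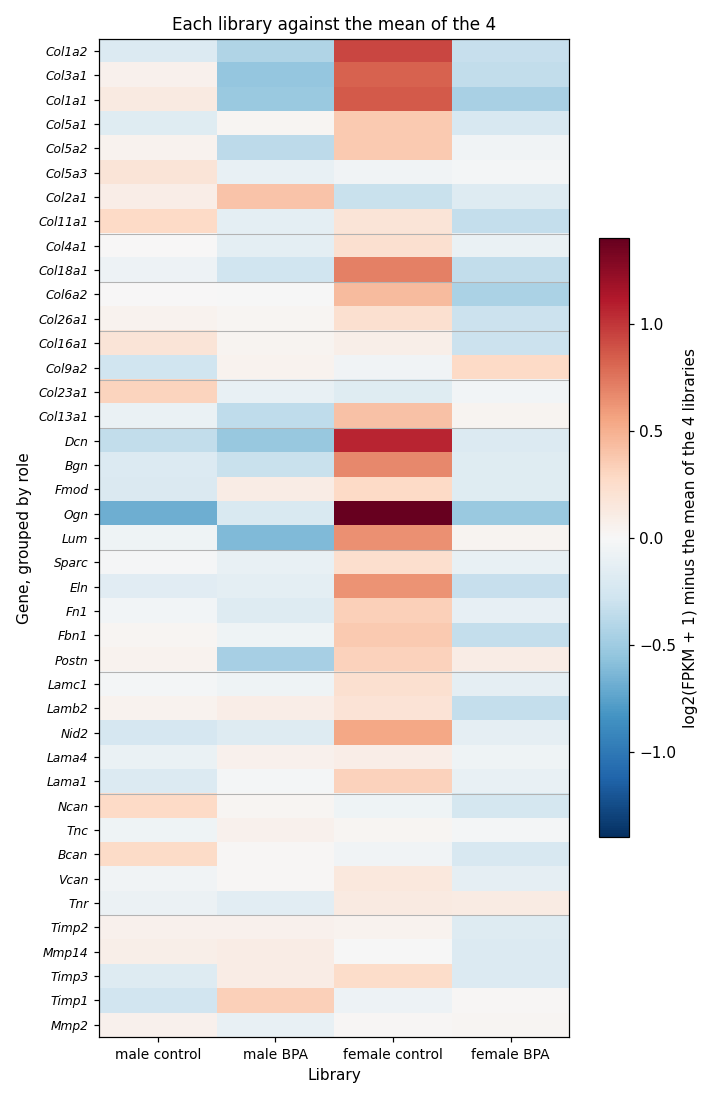
Each member in each library as log2(FPKM + 1) minus the mean of the 4 libraries, with red above and blue below that mean, members grouped by role. The female control column is red for the type I and III collagens, Col18a1, Dcn, Bgn, Ogn, Lum, Eln and Nid2, and the lecticans, tenascins and proteases at the bottom are pale.

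The promoters of those of the 10 genes with an entry in the RefSeq promoter table used are shown, since these genes shared a high female control library. Each runs from 250 bases before to 50 bases after the annotated start (RefSeq, assembly GRCr8, whereas the expression values were made on rn6), 5′ to 3′ on the strand of the gene. Capitals mark 3 motifs searched on both strands, namely TATAAA, the usual letters of the TATA box, then the box spelled CCAAT, and lastly GGGCGG, a GC box. Col1a2 lies at chr4:33518307-33518606 (plus strand), Ogn at chr17:15258946-15259245 (minus strand), Lum at chr7:34245456-34245755 (plus strand) and Col18a1 at chr20:11473395-11473694 (plus strand).
Col1a2: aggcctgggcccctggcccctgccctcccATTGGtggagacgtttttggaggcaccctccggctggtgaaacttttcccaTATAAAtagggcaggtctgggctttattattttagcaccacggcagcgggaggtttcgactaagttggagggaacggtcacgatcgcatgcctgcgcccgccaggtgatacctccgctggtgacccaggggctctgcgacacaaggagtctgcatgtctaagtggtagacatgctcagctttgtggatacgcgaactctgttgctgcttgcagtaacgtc
Ogn: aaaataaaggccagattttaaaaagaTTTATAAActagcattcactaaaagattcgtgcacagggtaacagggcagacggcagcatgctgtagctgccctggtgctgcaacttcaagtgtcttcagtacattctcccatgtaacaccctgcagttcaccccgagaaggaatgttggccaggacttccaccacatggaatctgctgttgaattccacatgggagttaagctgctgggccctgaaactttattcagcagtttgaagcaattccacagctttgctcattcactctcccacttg
Lum: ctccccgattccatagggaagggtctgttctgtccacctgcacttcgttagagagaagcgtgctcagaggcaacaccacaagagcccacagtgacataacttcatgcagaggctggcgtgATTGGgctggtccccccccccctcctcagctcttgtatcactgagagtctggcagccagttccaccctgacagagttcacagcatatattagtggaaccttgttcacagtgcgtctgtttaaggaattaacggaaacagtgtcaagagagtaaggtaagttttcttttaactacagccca
Col18a1: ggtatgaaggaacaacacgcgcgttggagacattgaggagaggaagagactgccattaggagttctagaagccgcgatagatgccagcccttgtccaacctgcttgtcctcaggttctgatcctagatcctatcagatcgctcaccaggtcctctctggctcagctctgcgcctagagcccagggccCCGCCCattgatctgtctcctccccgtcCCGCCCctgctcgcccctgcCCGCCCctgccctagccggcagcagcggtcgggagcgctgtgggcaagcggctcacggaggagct
In these windows Col1a2 held a CCAAT box and a match to TATAAA, at base -170 from the annotated start. Ogn held overlapping TATAAA matches on both strands, at -224 and -222. Lum held a CCAAT box and Col18a1 3 GC boxes, so that no motif of the 3 was shared by all 4 promoters. Over the 40 members with a promoter entry, TATAAA occurred in 8 (20%), CCAAT in 12 (30%) and GGGCGG in 22 (55%), against 14.2%, 37.5% and 33.1% of 33469 RefSeq promoters of the same length. These matches describe the sequence and not a factor's binding.

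Glycoproteins of elastic and fibronectin matrix, 5 compared of 6, were each highest in female control. Elastin (Eln), the core of elastic fibres in vessel walls, had 25.2 FPKM in control males, 25.6 in BPA males, 44.2 in control females and 22.5 in BPA females. The 3 lower libraries differed by at most 0.18 on the log2 scale, and the female change was -0.95 with a male change of 0.02. Fibrillin 1 (Fbn1), which forms the microfibrils that elastin is laid on, had 3.98, 3.69, 5.32 and 2.88 FPKM, with changes of -0.09 and -0.70 (-0.36 for female BPA against male control). Fibronectin (Fn1), which tethers cells to collagen through integrins, had 18.9, 17.2, 24.9 and 17.9 FPKM, with changes of -0.13 and -0.45, and Sparc changed by -0.09 and -0.34. Periostin (Postn), a matricellular partner of collagen, was the member of this group that passed 0.5 in males, at 2.28, 1.3, 2.96 and 2.41 FPKM, with a change of -0.51 (counting error 0.30) and of -0.22 in females.

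Most basement membrane genes varied less. Col4a1 stood at 43.5 FPKM in control males, 39.1 in BPA males, 50.8 in control females and 40.4 in BPA females, with changes of -0.15 and -0.32. Its obligate partner Col4a2 was present only as an assembled transcript without a gene ID, named by its best protein match, at 41.6, 39.9, 45.7 and 37.5 FPKM. The ratio of Col4a1 to Col4a2 lay between 0.981 and 1.11 in the 4 libraries. The laminin chain Lamc1, common to most laminins, had 15.5, 15.1, 18.6 and 14.4 FPKM, and Lama4, a laminin chain of vessels, 6.44, 7.28, 7.48 and 6.63, both within 0.5 in each sex. Nidogen 2 (Nid2), a linker of laminin and type IV collagen, had 6.87 FPKM in control males, 7.18 in BPA males, 12.4 in control females and 7.49 in BPA females, a change of 0.06 in males and -0.66 in females. An assembled Nid2 transcript of 500 bases rested on an estimated 12 to 33 fragments. With it added the change of Nid2 was -0.08 in males and -0.92 in females. Its relative Nid1, also an assembled transcript, was far more even, at 32, 29.2, 34.3 and 30.6 FPKM. Lamb2, a laminin chain of vessels and synapses, had its female BPA library below the other 3, at 9, 9.24, 9.96 and 6.67 FPKM, with changes of 0.03 and -0.51, or -0.38 for female BPA against male control. Lama1 had 1.74, 2.09, 2.93 and 1.92 FPKM.

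Of the beaded collagens Col6a2 and Col26a1 could be compared, and female BPA was the lowest library for both. Col6a2, a chain of the type VI microfibrils around cells and vessels, had 12.2 FPKM in control males, 12.1 in BPA males, 16.9 in control females and 8.66 in BPA females. Its 2 male libraries were equal within counting error, and the female change was -0.89, or -0.45 against male control. Col26a1 had 8.93, 8.76, 10.2 and 6.81 FPKM, with changes of -0.02 and -0.52, or -0.35 against male control. The partner chain Col6a1 appeared as 2 assembled transcripts, at 9.94, 8.71, 13 and 8 FPKM and at 9.55, 7.96, 13 and 7.93 FPKM. Of 3 transcripts matching Col6a3, the first had 3.14, 1.33, 5.47 and 1.57 FPKM, with changes of -0.83 in males and -1.33 in females, and the second 1.03, 0.62, 2.21 and 1.42 FPKM, with changes of -0.33 and -0.41. Male BPA was the lowest library for both. The last was listed only in the male libraries, at 0.01 FPKM in control and 0.96 in BPA.

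Collagens that decorate fibrils or span the membrane were few and low. Col16a1, a fibril-associated chain, had 5.54 FPKM in control males, 4.97 in BPA males, 5.12 in control females and 3.71 in BPA females. Col9a2, a chain of type IX collagen, was higher with BPA by the same amount in each sex, at 2.02, 2.79, 2.56 and 3.47 FPKM, a change of 0.33 in both, but its values rested on an estimated 53 to 91 fragments. The counting errors of 0.26 and 0.23 were nearly as large as the change. The transmembrane chains were Col23a1, at 5.66, 3.97, 3.76 and 4.2 FPKM, in which male control was the highest library, and Col13a1, at 0.95, 0.62, 1.76 and 1.14 FPKM. Col13a1 was the 1 member whose mean over the 3 libraries other than female control was under 1 FPKM.

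The neural lecticans and tenascins had another pattern. Their summed level was 462 FPKM in control males, 418 in BPA males, 406 in control females and 363 in BPA females, none of the 5 compared passed a change of 0.5 in either sex, and the median change was -0.07 in males and -0.18 in females. Neurocan (Ncan), secreted by neurons and glia of the young brain, had 215 FPKM in control males, 180 in BPA males, 169 in control females and 149 in BPA females. Brevican (Bcan), made by glia, had 115, 96.3, 92.2 and 81.2 FPKM in the same order. Male control was the highest and female BPA the lowest library for both genes. BPA minus control was -0.25 in males and -0.18 in females for each gene, and their ratio Bcan to Ncan held between 0.533 and 0.546 in the 4 libraries. Female BPA minus male control was -0.53 for Ncan and -0.49 for Bcan, with a group median of -0.08.

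Between the sexes, limma called 0 members at an adjusted p under 0.05, where it called 0.00738% of all rows. At an unadjusted p under 0.05 it listed 4 members, Ncan, Bcan, Col2a1 and Lum, against 10.6% of all rows. The female minus male difference was -0.31 ± 0.109 (SE) for Ncan, unadjusted p of 0.0264 and adjusted p of 0.399, and -0.28 ± 0.109 for Bcan, unadjusted p of 0.04 and adjusted p of 0.44. Without 1 library the unadjusted count was 2 without male control (5.01% of all rows), 2 without male BPA (5.97%), 6 without female control (12.4%) and 14 without female BPA (11.4%). For Lum the difference was 0.68 ± 0.283, unadjusted p of 0.0496 and adjusted p of 0.468. With treatment as a covariate limma listed 9 members at an unadjusted p under 0.05, and 1940 of all 13542 rows. By order alone, both female libraries were above both male libraries for 7 of 41 members, against 19.7% of all rows with a gene ID, and below for 5, against 23.7%.

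The promoters of Ncan and Bcan are given as those of the pair that kept a constant ratio, with the same window, assembly, motifs and capitals as above. Ncan lies at chr16:19335657-19335956 (plus strand) and Bcan at chr2:175765265-175765564 (minus strand).
Ncan: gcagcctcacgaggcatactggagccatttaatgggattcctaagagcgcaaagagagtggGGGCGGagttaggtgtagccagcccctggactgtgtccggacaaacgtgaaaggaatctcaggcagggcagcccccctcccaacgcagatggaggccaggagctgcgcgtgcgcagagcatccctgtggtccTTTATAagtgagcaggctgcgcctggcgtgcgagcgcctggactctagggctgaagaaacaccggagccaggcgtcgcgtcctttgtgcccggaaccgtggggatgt
Bcan: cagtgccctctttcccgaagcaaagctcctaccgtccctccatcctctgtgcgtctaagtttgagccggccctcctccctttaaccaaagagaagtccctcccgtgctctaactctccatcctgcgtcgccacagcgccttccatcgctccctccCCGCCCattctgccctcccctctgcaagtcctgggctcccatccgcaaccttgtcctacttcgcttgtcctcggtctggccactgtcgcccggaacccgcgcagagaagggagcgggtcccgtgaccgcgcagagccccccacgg
Both windows held 1 GC box, on opposite strands, and Ncan also held a TATAAA match on the reverse strand, at base -57.

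The other members of this group differed less between libraries. Tenascin C (Tnc), a glycoprotein of the germinal zones, had 92.5 FPKM in control males, 100 in BPA males, 98.3 in control females and 94.1 in BPA females, with changes of 0.11 and -0.06. Versican (Vcan), the lectican found both in young brain and in vessel walls, had 32, 33.4, 36.7 and 30.2 FPKM, and unlike Ncan and Bcan its highest library was female control. The ratio of Ncan to Vcan was therefore 6.73 in control males, 5.39 in BPA males, 4.61 in control females and 4.92 in BPA females. Tenascin R (Tnr), a perineuronal net protein of oligodendrocytes and interneurons, had 7.34, 6.96, 8.64 and 8.57 FPKM, with changes of -0.07 and -0.01. Aggrecan (Acan), the lectican of mature nets, was at 0.41 to 0.8 FPKM, under the level limit.

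Of 5 proteases and inhibitors that remodel this matrix, 1 passed 0.5 in males and none in females. Timp2 had 167 FPKM in control males, 167 in BPA males, 165 in control females and 141 in BPA females, and Mmp14, the membrane collagenase, 26.1, 26.6, 24.6 and 21.5. Mmp2, the gelatinase that Mmp14 activates, lay between 5.32 and 6.1 FPKM. Timp1, an inducible inhibitor of metalloproteases, was the 1 member higher past 0.5 in males, at 10.1 FPKM in control males, 15.8 in BPA males, 11.7 in control females and 12.5 in BPA females. Male BPA was the highest library and the other 3 were close, with a change of 0.59 in males (counting error 0.22) and of 0.09 in females, from an estimated 68 to 106 fragments. Timp3, the matrix-bound inhibitor, had 13.2, 16.3, 18.2 and 13.1 FPKM, with changes of 0.28 and -0.45.

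The 12 members under the level limit were Col27a1, Col11a2, Col7a1, Col4a3, Col4a4, Col8a1, Col15a1, Col6a4, Col9a1, Col14a1, Lox and Acan, with Col17a1 listed only in the male libraries, at 0.06 FPKM in each. Lysyl oxidase (Lox), which crosslinks collagen and elastin, had 0.36 FPKM in control males, 0.41 in BPA males, 1.47 in control females and 0.27 in BPA females. Female control was again the highest library, on an estimated 60 fragments in female control and 11 to 17 in the others. Col7a1, the anchoring fibril chain, had 0.68, 1.02, 0.72 and 0.71 FPKM, and Col9a1 0.3, 0.39, 0.37 and 0.66. Behind the low members other than Lox lay an estimated 1 to 83 fragments per library, too few to order the libraries.

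Genes that make, bind or accompany these proteins were read from 4 lists. To set beside each list, 2.06% of all rows with a gene ID were lower past 0.5 in males and 4.93% in females. For female BPA against male control the share was 5.17%. Of the collagen synthesis and processing genes, 24 of 30 could be compared, none was higher, 1 was lower in males (P4ha3) and 4 were lower in females (Plod1, Serpinh1, P3h3 and Pcolce), with medians of -0.04 and -0.23. These 5 were chosen after their values were seen. Against male control 2 were lower in female BPA, P4ha3 (-0.59) and Loxl1 (-0.67), with a list median of -0.21. The 4 lower in females stayed within 0.5 there, at -0.07 for Plod1, -0.38 for Serpinh1, -0.29 for P3h3 and -0.47 for Pcolce. Serpinh1, the collagen chaperone HSP47, had 35.5 FPKM in control males, 32 in BPA males, 44.5 in control females and 27.1 in BPA females, a change of -0.15 in males and -0.69 in females. Plod3, a lysyl hydroxylase, had 17, 14, 14.6 and 12.5 FPKM, and P3h4, a cofactor of collagen hydroxylation, 7.07, 6.08, 7.18 and 5.99, and each of these changed by less in females than Serpinh1 did.

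Among 15 collagen and matrix receptors compared, none passed 0.5 in males and 2, Ddr2 and Itga11, were lower in females, against 4.93% of all rows. None was lower in female BPA against male control. Ddr2, the collagen receptor kinase of fibroblasts, had 6.79 FPKM in control males, 5.91 in BPA males, 10.2 in control females and 4.97 in BPA females, while Itga6, a laminin receptor chain, had 9.53, 8.43, 9.31 and 8.56. Of 10 partners and cleaving proteases of hyaluronan and lecticans, 1, Hapln1, was lower in females and none in males, nor did any pass 0.5 in female BPA against male control. Ptprz1, whose secreted form is the proteoglycan phosphacan, had 117, 100, 131 and 117 FPKM, and Cspg5, a neural transmembrane proteoglycan, 116, 94.8, 95.5 and 88.3. In Cspg5 male control was again the highest and female BPA the lowest library, as in Ncan and Bcan. Of 17 other basement membrane and microfibril genes, 1 was lower in males (Prelp) and 6 were lower in females (Lamc3, Fbln1, Fbln5, Efemp1, Thbs3 and Prelp). Against male control 5 were lower in female BPA, namely Fbln1, Thbs3 and Prelp of these 6, with Ltbp1 and Ltbp4 (both -0.51). In that contrast Fbln5 stood at 0.24, Lamc3 at -0.26 and Efemp1 at -0.36. Efemp1, at 1.03, 0.8, 2.33 and 0.58 FPKM, passed the level limit only through female control. Prelp, a leucine-rich protein that anchors basement membranes to collagen, was lower in both sexes, at 5.07, 3.03, 7.83 and 2.47 FPKM. Fibulin 1 (Fbln1) had 12.6, 9.66, 13.9 and 8.5 FPKM, with changes of -0.35 and -0.65.

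Marker lists of other cells that can supply matrix were read in the same way. The endothelial markers summed to 112 FPKM in control males, 108 in BPA males, 129 in control females and 105 in BPA females, with female control the highest library in 9 of 9 markers but in none by 0.5. The pericyte and smooth muscle markers summed to 57.7, 47.9, 76 and 54.5 FPKM. Within that list Pdgfrb, a receptor of pericytes, was 9.57, 9.54, 9.94 and 9.19 FPKM, whereas Acta2, smooth muscle actin, had 0.75, 1.01, 8.71 and 1.95. Radial glia and astrocyte markers summed to 1425, 1268, 1418 and 1295 FPKM. The part of these lists in the matrix values was not tested.

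**Figure D4:**
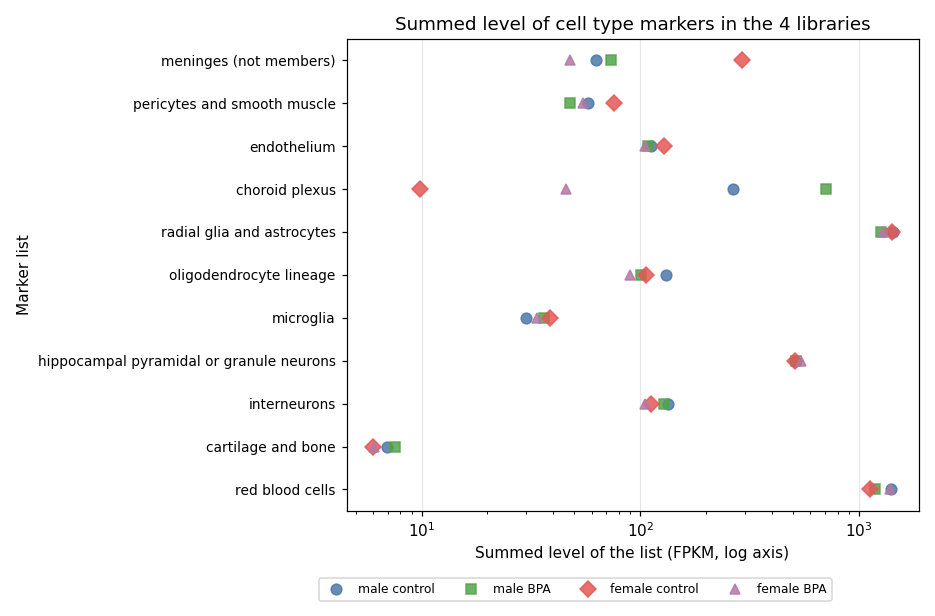
Summed FPKM of each marker list in each library on a logarithmic axis, 1 row a list, with the library symbols of the plot of levels. The meningeal sum is 291 FPKM in female control and 47.8 to 73.4 in the other libraries, the choroid plexus sums spread from 9.81 to 708 FPKM, and the neuronal and endothelial sums lie close together.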

How the data were processed

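Hippocampal RNA of 4 libraries was sequenced, and the authors deposited FPKM values per gene (2 decimals, lowest value 0.01). The submitters' processing notes name HISAT 0.1.6, Bowtie2 2.2.5, RSEM and build rn6, and the annotation is not given in the sources used here. The deposited FPKM values are already scaled to depth and gene length, and replicates were pooled as tissue before sequencing. The fragments behind each value were estimated from the steps between low FPKM values (96.2% to 99.1% of low values within 0.15 of a whole fragment), and intervals from them cover counting error only. RSEM can split reads between related genes, so values of paralogs depend on that split.

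Values were analysed as log2(FPKM + 1), which understates changes of low genes, over rows listed in all 4 libraries with a mean of at least 1 FPKM. Groups were compared within sex by size of change (at least 0.5), and with limma 3.58.1 in R 4.3.3 (lmFit and eBayes with trend, Benjamini-Hochberg adjustment over all 13542 rows) as 2 BPA against 2 control and 2 female against 2 male libraries. The script was tested on simulated data. The study's methods give independent litters, but each group was sequenced as 1 pool, so limma p-values measure only the spread between these libraries. Named genes were the 3 highest of each role group, members past 0.5 in both sexes or of opposite sign, and up to 2 genes a pathway list. This rule named 33 members, and the remaining members and list genes are given to account for every one, outside the rule. The members, lists and tests were chosen with earlier results of these data known. Gene names came from the files, and all 54 members matched RefSeq symbols. Alternatives were another added value (0.1), other level limits (5 or none), quantile normalization, added transcripts, covariates, a change of 1 and leaving out each library.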

Additional observations from a re-analysis of the deposited data

Results flagged for a closer look

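In 5 members the change with BPA had opposite signs in the sexes and passed 0.5 on the log2(FPKM + 1) scale in females. The female change minus the male change was -2.41 for Ogn, -0.97 for Eln, -0.79 for Col5a1, -0.72 for Nid2 and -0.55 for Lamb2. Each sex had 1 library per treatment, so these differences were not tested. For Ogn, Eln, Col5a1 and Nid2 the female control was the highest of the 4 libraries by 1.64, 0.76, 0.35 and 0.66, and for Lamb2 by 0.10. The male changes of Eln, Nid2 and Lamb2 (0.02, 0.06 and 0.03) were smaller than their counting errors (0.07, 0.12 and 0.10). With its assembled transcript added the changes of Nid2 were -0.08 in males and -0.92 in females, no longer of opposite sign. That transcript spans 500 bases and rested on an estimated 12 to 33 fragments. After quantile normalization the female change of Lamb2 was -0.44, under 0.5.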

How the results depend on the processing

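Apart from the covariate fits, which compare within sex or treatment, no paired analysis was run, because each group has 1 library. Setting female BPA against male control, an alternative added after seeing the data, changes sex and treatment together. It left Dcn (0.16), Ogn (0.16), Nid2 (0.11), Lum (0.10) and Bgn (0.02) slightly higher in place of lower, all inside the limit. The female median of the small leucine-rich proteoglycans became 0.10. No other alternative turned the sign of a change past the limit among the named members and role groups. The 0 members called by limma in either test stayed 0 under every alternative fit, and became 3 (BPA) and 4 (sex) at an unadjusted p. Over all rows the BPA test called 637 unadjusted, 2 with sex as a covariate and 0 to 3 when 1 library was left out (1 without male BPA, 3 without female control). The sex test called 1442 unadjusted, 21 with a mean of at least 5 FPKM, 55 with treatment as a covariate and 1 to 2 without 1 library (2 without female control). Members past the limit in males numbered 9 with 0.1 added in place of 1, 3 with a mean of at least 5 FPKM and 0 at a change of 1. In females 12 passed after quantile normalization, 12 with a mean of at least 5 FPKM, 6 passed a change of 1, and 4 passed 0.5 against the male control library. Members past the limit in both sexes became 5 with 0.1 added (Col11a1, Col1a1, Col13a1, Lum and Col3a1), 0 at a change of 1, and 2 (Col1a1 and Col3a1) with a mean of at least 5 FPKM or after quantile normalization. After quantile normalization the female change was -0.50 for Lum and -0.44 for Col26a1 and Lamb2. The female median became -0.34 with no filter, -0.36 after quantile normalization and -0.10 against the male control library. For these changes the cause was not tested.

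Among the named members, under the alternatives other than female BPA against male control, 275 recomputed changes moved within their 95% counting interval, and 3 moved further (Ncan and Tnc in females after quantile normalization, Nid2 in females with assembled transcripts added). Precision is limited by 1 library per group, and for Ogn, Lum, Dcn, Fmod, Postn, Col9a2, Col13a1, Col23a1 and Timp1 also by fewer than 120 estimated fragments in at least 2 libraries.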

Other observations

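Besides the rows with a gene ID, 26 assembled transcripts matched 17 matrix chains, and 14 of these chains had no other row. Col4a5, a type IV chain of basement membranes, stood at 11.7 FPKM in control males, 10.9 in BPA males, 11.4 in control females and 10.3 in BPA females. Lamb1, the laminin β chain that pairs with Lamc1, had 11.7, 13.6, 15.7 and 12.5 FPKM, and its ratio to Lamc1 was 0.752, 0.902, 0.843 and 0.871 in the same order. Of 2 transcripts matching Col12a1, a fibril-associated collagen of dense connective tissue, both had 2.71 FPKM in female control, against 1.09 to 1.85 and 1.3 to 2.04 in the other libraries. A transcript matching Lama2, the laminin α chain of muscle, vessels and glia, had 1.4, 1.4, 2.99 and 1.36 FPKM. For 2 further Lama2 transcripts, identical to each other in every library, the values were 0.81, 1.05, 1.85 and 1.29 FPKM. These transcripts were named by their best protein match.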
